A study of Mus musculus with 2 samples.

Results

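GFI1B, its paralog GFI1 and the LSD1-CoREST corepressor that both factors recruit were followed through their 8 genes: Gfi1b, Gfi1, Kdm1a, Rcor1, Rcor3, Hdac1, Hdac2 and Hmg20b. The genes were chosen by name and matched by gene identifier without version, and all 8 of them were found among the 43346 annotated genes of the tables. The series measured total RNA above 200 bases from MEP, the megakaryocyte-erythroid progenitors of the marrow, taken at 5 to 6 weeks of age from C57BL/6J males, a standard inbred strain, with no allele or treatment named. The surface markers used to isolate the cells are not in the labels. The series holds 2 libraries of 100 cells each, named biological replicates 1 and 2, which have separate biosamples but share 1 donor record. With 1 group there was no condition to compare and no test to run, so the values describe the level of each gene, its spread over both libraries and the make-up of its transcripts. Nothing in the labels says that the cells came from separate animals, so the spread may be technical.

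GFI1 and GFI1B are zinc finger repressors that bind DNA through their fingers and hold a short N-terminal SNAG domain. That domain resembles a histone H3 tail and docks into LSD1, the lysine demethylase encoded by Kdm1a that removes methyl groups from lysine 4 of histone H3. LSD1 works with a CoREST scaffold, encoded by Rcor1 or its relatives, with the deacetylases HDAC1 or HDAC2, and with HMG20B, an HMG-box protein also called BRAF35. GFI1B is known as a factor required for red cell and platelet formation, and GFI1 for neutrophil and lymphoid development.

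For Gfi1b and Kdm1a the annotation holds complete coding transcripts that differ by 1 in-frame stretch of coding sequence, and the libraries differed in how the authors' quantification divided the reads between them. The stretch of Gfi1b is an extension of a coding exon by 99 bases at chr2:28611585-28611683 (mm10, minus strand), which adds 33 codons after 648 coding bases. It is present in Gfi1b-204, with 1089 coding bases, and absent from Gfi1b-201, with 990. The stretch of Kdm1a is a separate exon of 60 bases at chr4:136582040-136582099 (mm10, minus strand), which adds 20 codons after 520 coding bases. It is present in Kdm1a-202, with 2619 coding bases, and absent from Kdm1a-203, with 2559. Each pair is shown 5′ to 3′ from the GENCODE transcripts, with the optional stretch in capitals and 12 flanking bases on each side.
Gfi1b-201: gtccactcacaggagcgaagcttc
Gfi1b-204: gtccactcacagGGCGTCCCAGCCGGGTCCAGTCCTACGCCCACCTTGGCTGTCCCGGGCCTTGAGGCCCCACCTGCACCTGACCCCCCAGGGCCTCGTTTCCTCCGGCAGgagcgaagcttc
Kdm1a-203: aagagccgtctggtgtggagggtg
Kdm1a-202: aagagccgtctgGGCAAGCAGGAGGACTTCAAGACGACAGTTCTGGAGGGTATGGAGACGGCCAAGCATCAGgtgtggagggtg
The stretch of Gfi1b holds 72.7% G and C bases and that of Kdm1a 56.7%.

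Replicate 1 held 30016974 expected counts and replicate 2 held 51510347. Protein-coding nuclear genes took 13518448 and 25799923 of them. All 8 erythroid markers (Gata1, Klf1, Epor, Tfrc, Car1, Car2, Ermap and Rhd) were at 10 TPM or more in both libraries. Of all 21461 protein-coding nuclear genes, 5308 reached that level in both. Of 8 megakaryocyte markers, 3 reached 1 TPM in both, or 37.5%, near the 44.2% of all protein-coding nuclear genes. These were Itga2b at 11.4 and 14.5 TPM, Vwf at 4.55 and 6.99 TPM and Fli1 at 7.72 and 4.17 TPM. The platelet chemokine gene Ppbp had 0 counts in both libraries and Pf4 had 0 and 8. The 10 granulocyte-monocyte markers summed to 1868 TPM in replicate 1 and 7.57 TPM in replicate 2, where 6 of them had 0 counts. The 8 B cell markers went the other way, with sums of 7.87 and 144 TPM. The libraries thus differed in genes of 2 other lineages. The part of this in the values below was not tested, and in bulk RNA fewer cells of a type and less RNA per cell cannot be told apart.

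Gfi1b, the DNA-binding repressor, had the highest level of the 8 genes. Levels are in TPM, the authors' estimate of a gene's share of all transcripts after division by length, scaled to a fixed sum, by which genes can be compared with each other. Gfi1b (ENSMUSG00000026815.10, mm10 chromosome 2, 28609450 to 28621982) was at 137 TPM in replicate 1, from 4783 counts, and at 156 TPM in replicate 2, from 9148 counts. The mean was 147 ± 12.9 TPM (SD, n = 2), above 98.4% of protein-coding nuclear genes in each library. Both libraries were high and stood close to each other.

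Its paralog Gfi1 (ENSMUSG00000029275.13, chromosome 5, 107716657 to 107726036) was barely detected. It was at 0.270 TPM in replicate 1, from 15 counts, and at 0.380 TPM in replicate 2, from 36 counts. Both values lay above the level that 3 counts would give, 0.0540 and 0.0317 TPM, and below 1 TPM. Gfi1b thus exceeded Gfi1 by 509 times in replicate 1 (95% exact interval 308 to 910) and by 410 times in replicate 2 (296 to 585). These and later intervals are Clopper-Pearson intervals on rounded expected counts at 95%, and they cover counting error only. Gfi1 is a gene of neutrophil precursors and lymphocytes, and the summed granulocyte-monocyte and B cell markers given above differed between the libraries in opposite directions. The Gfi1 ratio of replicate 2 to replicate 1 was 1.41 with an interval of 0.752 to 2.77, so no difference was detectable at this depth. A non-coding gene on the other strand, A430072P03Rik, overlaps Gfi1 exons and was listed at 0 in both libraries.

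No other SNAG-domain factor on the list reached 1 TPM. The 9 genes were the Snail genes Snai1, Snai2 and Snai3, the Insm genes Insm1 and Insm2, the Scratch genes Scrt1 and Scrt2, and Ovol1 and Ovol2. Of these, 7 had 0 counts in both libraries. Such levels are common, since 11104 of all 21461 protein-coding nuclear genes were under 1 TPM in both libraries and 8573 had 0 counts in both. With so few listed genes the difference from this background was not tested. Snai3 was at 0.940 TPM in replicate 1, from 30 counts, and Snai1 at 0.150 TPM, from 5 counts, and neither had a count in replicate 2. Gfi1b was therefore the single gene at 1 TPM or more among the 11 SNAG-domain genes examined.

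Kdm1a, which encodes the demethylase, stood well under Gfi1b. Kdm1a (ENSMUSG00000036940.11, chromosome 4, 136550540 to 136602723) was at 25.5 TPM in replicate 1, from 1324 counts, and at 32.2 TPM in replicate 2, from 2604 counts, a mean of 28.9 ± 4.74 TPM (SD, n = 2). Its flavin-dependent relative Kdm1b, which encodes LSD2, was at 7.07 and 4.11 TPM. In this pair, chosen after its values were seen, Kdm1a exceeded it by 3.61 times in replicate 1 (95% exact interval 3.22 to 4.06) and by 7.84 times in replicate 2 (7.16 to 8.60). Among the 6 genes listed for demethylases of lysine 4 of histone H3, Kdm1a had the highest gene-level TPM in each library, all transcript models counted. The others of the list, Kdm5a, Kdm5b, Kdm5c and Kdm5d, had means of 20.1, 17.1, 21.8 and 10.5 TPM. In complete coding transcripts alone Kdm1a was at 19.0 and 18.6 TPM. Those of the other listed genes were not examined, so the rank holds for gene-level values only.

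Of the scaffold genes, Rcor1 was near the level of Kdm1a by gene-level TPM, all transcript models counted, and Rcor3 below it. Rcor1 (ENSMUSG00000037896.13, chromosome 12, 111039351 to 111115901), which encodes CoREST1, was at 30.2 TPM in replicate 1, from 3515 counts, and at 26.6 TPM in replicate 2, from 5575 counts. Its mean of 28.4 ± 2.60 TPM (SD, n = 2) differed from that of Kdm1a by 0.475 TPM, less than the spread of either. Rcor3 (ENSMUSG00000037395.11, chromosome 1, 192098546 to 192138062), which encodes CoREST3, was at 10.8 TPM, from 648 counts, and at 16.9 TPM, from 1753 counts. Rcor1 exceeded Rcor3 by 2.81 times in replicate 1 (95% exact interval 2.58 to 3.06) and by 1.58 times in replicate 2 (1.49 to 1.66). Rcor2, the remaining CoREST gene, was at 2.23 and 2.35 TPM, from 61 and 122 counts. All CoREST genes were thus detected, in the order Rcor1, Rcor3 and Rcor2 in both libraries. Rcor3 shares exonic sequence with 3 genes on the other strand, of which Gm10516 was at 1.01 and 0.820 TPM and Gm26879 and Gm37055 were listed at 0. The README files list signal tracks for each strand, but the strand setting of the counting is not stated, so reads of Rcor3 and Gm10516 cannot be told apart with certainty.

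The deacetylase genes came next after Gfi1b. Hdac2 (ENSMUSG00000019777.12, chromosome 10, 36974544 to 37001889) was at 63.7 TPM in replicate 1, from 2374 counts, and at 81.0 TPM in replicate 2, from 5423 counts, a mean of 72.4 ± 12.2 TPM (SD, n = 2). Hdac1 (ENSMUSG00000028800.11, chromosome 4, 129516104 to 129542713) was at 56.4 TPM, from 2147 counts, and at 69.1 TPM, from 4419 counts, a mean of 62.8 ± 8.99 TPM (SD, n = 2). Hdac2 was the higher one in each library, and the ranges of both genes overlapped. The ratio of Hdac1 to Hdac2 was 0.885 in replicate 1 (95% exact interval 0.835 to 0.939) and 0.853 in replicate 2 (0.820 to 0.888). Hdac1 has a near-identical processed pseudogene, Gm10093, with 99.4% identity to Hdac1-201 over 1444 aligned bases. It was given 17.0 and 32.4 expected counts, 0.420 and 0.460 TPM, so the split between gene and copy is uncertain but concerns few counts as deposited. The copies Gm4864 and AC125456.1, at 94.3% and 96.3% identity, had no value in the tables. No copy of at least 90% identity over 500 bases was found for the chosen transcripts of the other 7 genes.

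Hmg20b, the HMG-box subunit, was lower. Hmg20b (ENSMUSG00000020232.13, chromosome 10, 81346048 to 81350480) was at 10.6 TPM in replicate 1, from 250 counts, and at 17.7 TPM in replicate 2, from 581 counts, a mean of 14.2 ± 4.99 TPM (SD, n = 2). The value was higher in replicate 2, and by gene-level TPM, all transcript models counted, both libraries lay near those of Rcor3.

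**Figure D1:**
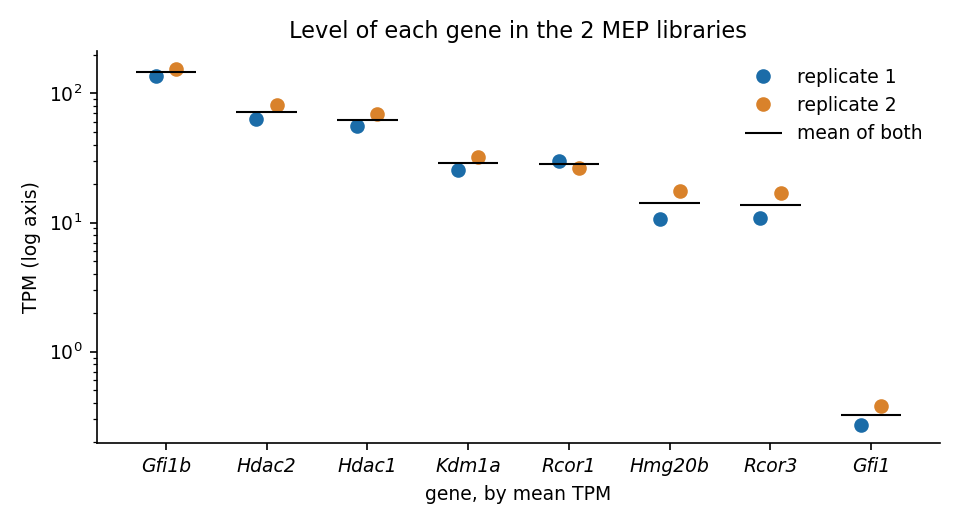
Level of the 8 genes in TPM on a log axis, in replicate 1 (blue) and replicate 2 (orange), with the mean of both as a line. Gfi1b is highest at 137 and 156 TPM and Gfi1 lowest at 0.270 and 0.380 TPM, and Rcor1 is the one gene with replicate 1 above replicate 2.

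The 8 genes fell into 5 steps by mean TPM, neighbours being called apart where both libraries gave the same order and the difference of means exceeded the sum of the SDs. Gfi1b stood apart from Hdac2 by 74.1 TPM against summed SDs of 25.2. Hdac2 and Hdac1 formed the next step, since their means differed by 9.59 TPM against 21.2. With TPM rescaled over protein-coding nuclear genes this pair also counted as apart, at 159 and 178 for Hdac2 against 141 and 152 for Hdac1. Kdm1a and Rcor1 made the next step, Hdac1 being 33.9 TPM above Kdm1a against 13.7. By these gene-level values Kdm1a and Rcor1 changed places between the libraries. Hmg20b and Rcor3 followed, with Rcor1 14.2 TPM above Hmg20b against 7.58, and by gene-level values Hmg20b and Rcor3 also changed places. In complete coding transcripts alone Hmg20b was below Rcor3 in both libraries, at 0.640 and 0.420 TPM against 4.86 and 7.23 TPM. Gfi1 was last, 13.5 TPM under Rcor3 against 4.38.

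Gene-level ratios between members of the complex were close in both libraries for some pairs and not for others. These pairs were chosen after their values were seen, and they compare RNA levels only. Hdac2 exceeded Kdm1a by 2.50 and 2.51 times in the respective libraries, and Hdac1 exceeded it by 2.21 and 2.15 times. In complete coding transcripts alone Hdac2 was at 50.1 and 72.1 TPM, Hdac1 at 48.7 and 57.1 and Kdm1a at 19.0 and 18.6. By these values the libraries were less alike in both ratios. Gfi1b exceeded Kdm1a by 5.38 and 4.83 times and Rcor1 by 4.54 and 5.86 times. Rcor1 was at 1.18 times the level of Kdm1a in replicate 1 (95% exact interval 1.11 to 1.26). In replicate 2 it was at 0.824 times (0.787 to 0.864), so this gene-level ratio crossed 1. Rcor1 was assigned to coding transcripts only, and Kdm1a in part to non-coding models, given below. In complete coding transcripts alone Rcor1 was above Kdm1a in both libraries, at 30.2 and 26.6 TPM against 19.0 and 18.6 TPM.

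None of the 7 genes with a mean of at least 1 TPM differed 2-fold between the libraries. Over all 11438 genes with such a mean, 16.3% differed at least 2-fold in either direction, 10.2% being higher and 6.14% lower in replicate 2. Over the 6156 genes with a mean of at least 10 TPM, a level that all 7 exceed, 5.91% differed so. With so few members, a count of 0 is near either background. The ratio of replicate 2 to replicate 1 was 1.66 for Hmg20b (95% exact interval 1.43 to 1.94) and 1.57 for Rcor3 (1.43 to 1.72), the 2 largest. It was 1.27 for Hdac2, 1.26 for Kdm1a, 1.23 for Hdac1 and 1.13 for Gfi1b. Rcor1 was the one gene with a ratio under 1, at 0.879 (0.842 to 0.917).

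These ratios are read against a general shift, since 66.1% of the 11438 genes were higher in replicate 2 and the median log2 difference of TPM + 1, replicate 2 minus replicate 1, was 0.18 with an SD of 0.80. Gfi1b had that same difference of 0.18, and Rcor1 one of -0.18. The direction of several genes depended on the scaling. By TPM 7 of the 8 genes were higher in replicate 2, after rescaling over protein-coding nuclear genes 6 were, and by counts scaled with TMM factors 5 were. Gfi1b passed to 0.998 after rescaling and 0.968 with TMM factors, and Kdm1a to 0.996 with TMM factors. Rcor1 stayed under 1 throughout, at 0.774 and 0.803, and Rcor3 above it, at 1.38 and 1.37. Hmg20b was at 1.47 after rescaling but at 1.18 by counts with TMM factors, which take no account of the transcript lengths estimated in each library.

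**Figure D2:**
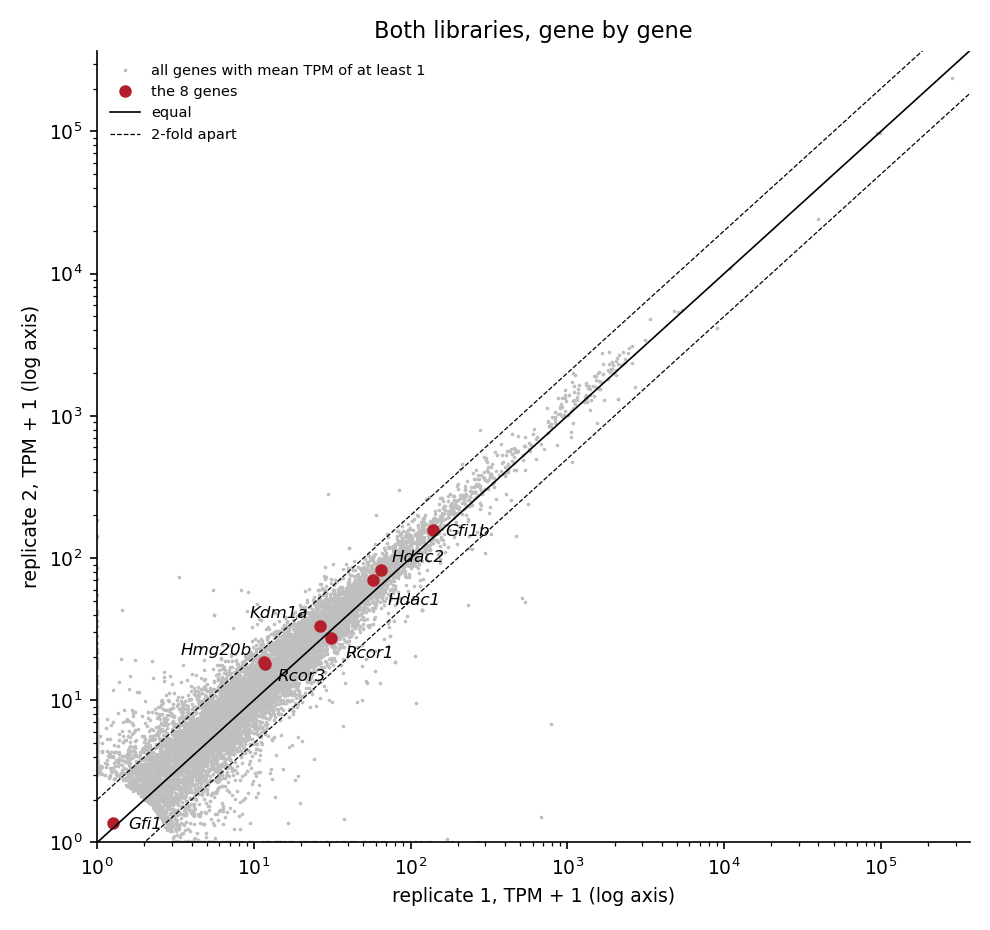
Each grey point is 1 of the 11438 genes with a mean of at least 1 TPM, by TPM + 1 in replicate 1 and replicate 2 on log axes, with the 8 genes in red. The 8 genes lie between the dashed lines that mark values 2-fold apart, and Rcor1 lies under the line of equal values.

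The transcripts of Gfi1b kept their order in both libraries while their shares moved. Gfi1b-201, without the 99-base extension, had 98.8 TPM, 71.9% of the gene, in replicate 1 and 131 TPM, 84.0%, in replicate 2. Gfi1b-204, with the extension, was at 38.6 TPM in replicate 1, with the authors' credibility bounds of 32.6 and 41.0, and at 23.4 TPM in replicate 2, with bounds of 20.4 and 24.9. The longer form thus made up 28.1% of the coding transcripts in replicate 1 and 15.2% in replicate 2. The non-coding model Gfi1b-203 was at 0 and 1.56 TPM, and Gfi1b-202 was listed at 0.

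Kdm1a changed its main transcript between the libraries. Kdm1a-203, without the 60-base exon, was at 15.4 TPM in replicate 1, with the authors' bounds of 12.5 and 16.6, and was listed at 0 in replicate 2, with an upper bound of 1.22. Kdm1a-202, with the exon, was at 3.67 TPM in replicate 1, with bounds of 1.73 and 5.44, and at 18.6 TPM in replicate 2, with bounds of 16.5 and 18.7. Bounds of the libraries did not overlap for either transcript. Kdm1a-201, a partial coding model without the exon, was at 0 and 3.83 TPM. Of the TPM in coding transcripts across this position, 19.3% held the exon in replicate 1 and 82.9% in replicate 2. The complete coding transcripts, Kdm1a-202 and Kdm1a-203, together were at 19.0 and 18.6 TPM, so their sum differed little while the split was nearly opposite.

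Gfi1 was too low for its transcripts to be told apart. Its 15 counts in replicate 1 all went to Gfi1-203 and its 36 in replicate 2 all to Gfi1-202, whereas the authors' posterior shares for Gfi1-203 were 40.1% and 33.3%.

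The deposited shares do not rest on the optional stretch alone. Kdm1a-202 and Kdm1a-203 also differ by 36 untranslated bases at the 5′ end and 4 at the 3′ end, and Gfi1b-201 and Gfi1b-204 by 37 and 5. Reads across the splice junctions themselves were not used here. A different main transcript was seen for 26.3% of the 5567 genes with several transcripts and at least 5 TPM in both libraries. A change of main transcript was thus common in these libraries. That share counts any change, large or small, and does not say how common one as large as that of Kdm1a was. Of the 7 members at 5 TPM or more, Kdm1a and Rcor3 had different main transcripts and 5 kept theirs, which is a share close to that background.

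**Figure D3:**
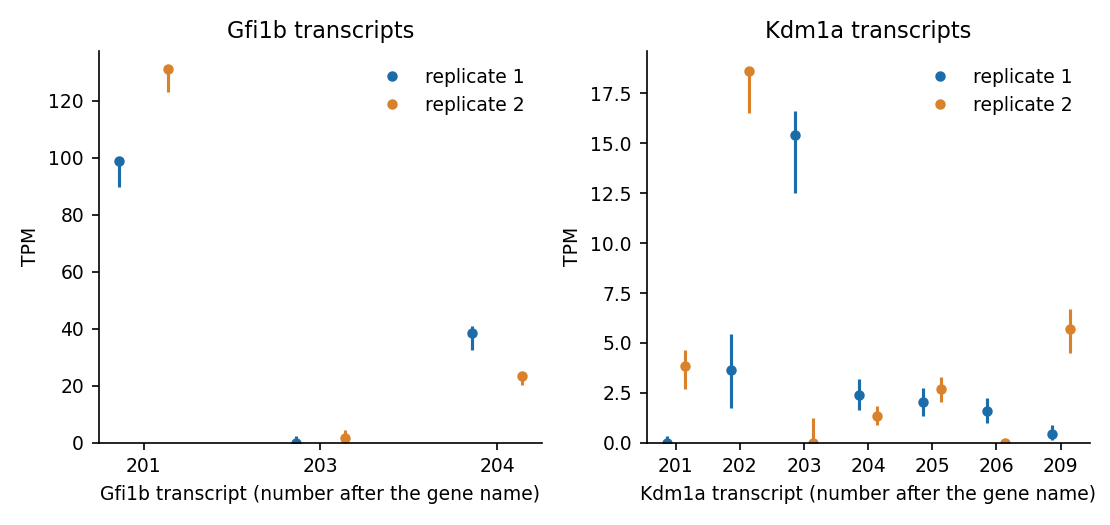
TPM of the transcripts of Gfi1b (left) and Kdm1a (right) that made up at least 1% of their gene in either library, in replicate 1 (blue) and replicate 2 (orange). Lines join the authors' credibility bounds, which belong to posterior means, so that a point can lie at or above its upper bound. Gfi1b-201 leads Gfi1b-204 in both libraries, whereas Kdm1a-203 leads in replicate 1 and Kdm1a-202 in replicate 2.

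Rcor1 and both deacetylase genes rested mainly on 1 complete coding transcript. Rcor1-201, with 1440 coding bases, made up 91.4% of Rcor1 in replicate 1 and 97.2% in replicate 2, and Rcor1-202, with 1146, made up the rest. Hdac1-201 made up 86.3% and 82.7% of Hdac1. Hdac2-201 made up 73.4% and 85.7% of Hdac2. The non-coding model Hdac2-204 was at 13.2 TPM in replicate 1, with the authors' bounds of 8.96 and 16.7, and at 2.92 TPM in replicate 2, with bounds of 0.141 and 5.18. It took 20.7% of Hdac2 in replicate 1 and 3.60% in replicate 2.

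Hmg20b and Rcor3 rested largely on other kinds of transcript. Of the Hmg20b level, 64.6% in replicate 1 and 75.3% in replicate 2 was assigned to models annotated as retained introns, which keep intron sequence and have no annotated coding sequence. Hmg20b-207, of 597 bases, was the main one, at 4.03 TPM and 37.9% of the gene in replicate 1 and 8.43 TPM and 47.7% in replicate 2. Hmg20b-206, of 2501 bases, took 26.6% and 19.5%. Before division by length Hmg20b-206 had more expected counts, 147 and 311, against 40.8 and 140 for Hmg20b-207. The partial coding model Hmg20b-210 took 27.1% and 22.3%. The complete coding models with a value, Hmg20b-201 and Hmg20b-202, have 951 coding bases each. Together they held 0.640 TPM in replicate 1 and 0.420 TPM in replicate 2, or 6.03% and 2.38% of the gene. The gene-level value of Hmg20b is thus mainly not a value of its complete coding transcripts.

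Rcor3 had 14 annotated transcripts, of which 10 had a value above 0 in replicate 1 and 6 in replicate 2. Retained-intron models held 39.7% and 39.6% of its level. Its main transcript was the retained-intron model Rcor3-211 in replicate 1, at 24.6%, and the coding transcript Rcor3-202 in replicate 2, at 33.8%. The coding transcript Rcor3-201 took 18.5% in replicate 1 and was listed at 0 in replicate 2, and Rcor3-205, annotated as a target of nonsense-mediated decay, took 4.28% and 17.5%. Complete coding models held 45.2% and 42.9% of Rcor3, or 4.86 and 7.23 TPM. The antisense genes named above lie opposite Rcor3 exons, and their part in these shares was not tested.

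Retained-intron models took 25.4% and 30.4% of Kdm1a, 13.7% and 17.3% of Hdac1, and 0.753% and 7.36% of Hdac2. Within Kdm1a the retained-intron model Kdm1a-209 was at 0.430 and 5.72 TPM. Gfi1b, Gfi1 and Rcor1 have no model of this class with a value. Over the 2694 protein-coding nuclear genes with such a model and at least 10 TPM in both libraries, the median share was 16.3% in replicate 1 and 15.9% in replicate 2. A share of at least 50% in both libraries was seen for 7.39% of those genes, and Hmg20b was the member among them. The shares are estimates from short reads of total RNA.

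**Figure D4:**
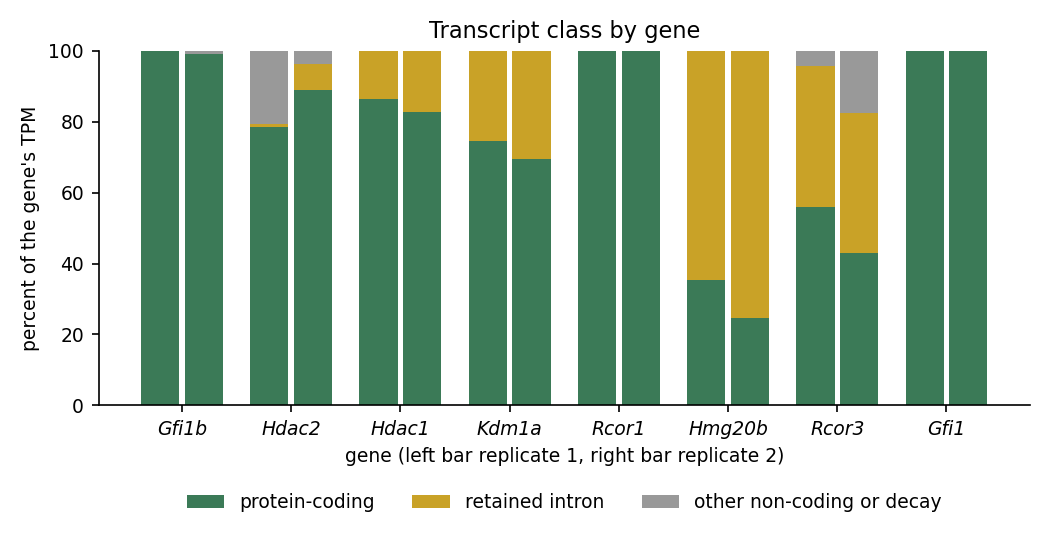
Percent of each gene's TPM in protein-coding transcripts (green), retained-intron models (yellow) and other non-coding or decay models (grey), with replicate 1 as the left bar and replicate 2 as the right bar of each gene. Hmg20b is mostly retained intron at 64.6% and 75.3%, whereas Gfi1b and Rcor1 are at or near 100% coding.

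The other subunits and partners of LSD1-CoREST were all detected. All 10 genes of that list reached 1 TPM in both libraries, against 44.2% of all protein-coding nuclear genes. Of the 10, 7 reached 10 TPM in both, against 5308 of all 21461 protein-coding nuclear genes. The list medians were 16.0 and 13.7 TPM, against 0.380 and 0.360 TPM over all those genes. Ctbp1, a corepressor that joins the complex, was at 81.0 TPM in the mean and Ctbp2 at 8.78 TPM. Rreb1 and Gse1 were at 42.9 and 37.1 TPM. Phf21a, which encodes the reader BHC80 of unmethylated lysine 4 of histone H3, was at 12.5 TPM. The zinc finger genes Zmym2 and Zmym3 were at 13.8 and 29.4 TPM. Zmym3 was at 19.2 and 39.5 TPM in the respective libraries, and Zfp217 at 25.5 and 12.4 TPM. By TPM these were the 2 of the 10 that differed 2-fold, a share near the 16.3% of all genes with a mean of at least 1 TPM. Both are among the 7 at 10 TPM or more, a larger share than the 5.91% of genes with a mean of at least 10 TPM. With so few genes this was not tested. By counts with TMM factors the ratios of Zmym3 and Zfp217 were 1.80 and 0.694.

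Hdac1 and Hdac2 are shared with other corepressors, whose genes were detected as well. All 12 genes listed for NuRD, the remodelling and deacetylase complex, were at 10 TPM or more in both libraries, with list medians of 59.8 and 63.4 TPM. The 12 SIN3 genes all reached 1 TPM in both, with medians of 14.1 and 15.4 TPM. The 6 genes of the NCoR/SMRT complex all reached 10 TPM, with medians of 24.7 and 31.7 TPM. Of all 21461 protein-coding nuclear genes, 44.2% reached 1 TPM in both libraries and 5308 reached 10 TPM. The 8 genes followed here had medians of 27.9 and 29.4 TPM, between those of SIN3 and NuRD. Hdac1 and Hdac2 were left out of the NuRD and SIN3 lists, and Rbbp4 and Rbbp7 were placed under NuRD only. The medians thus depend on how the lists were drawn. Among all 11 deacetylase genes listed, Hdac2, Hdac7 and Hdac1 had the highest means, at 72.4, 70.7 and 62.8 TPM. Hdac7, of class IIa, was at 51.6 and 89.8 TPM, below Hdac1 in the first library and above Hdac2 in the second. Hdac3, the deacetylase of NCoR/SMRT, was at 35.0 TPM and Hdac8, the remaining class I gene, at 7.55 TPM. The lowest was Hdac9, at 0.130 TPM.

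**Figure D5:**
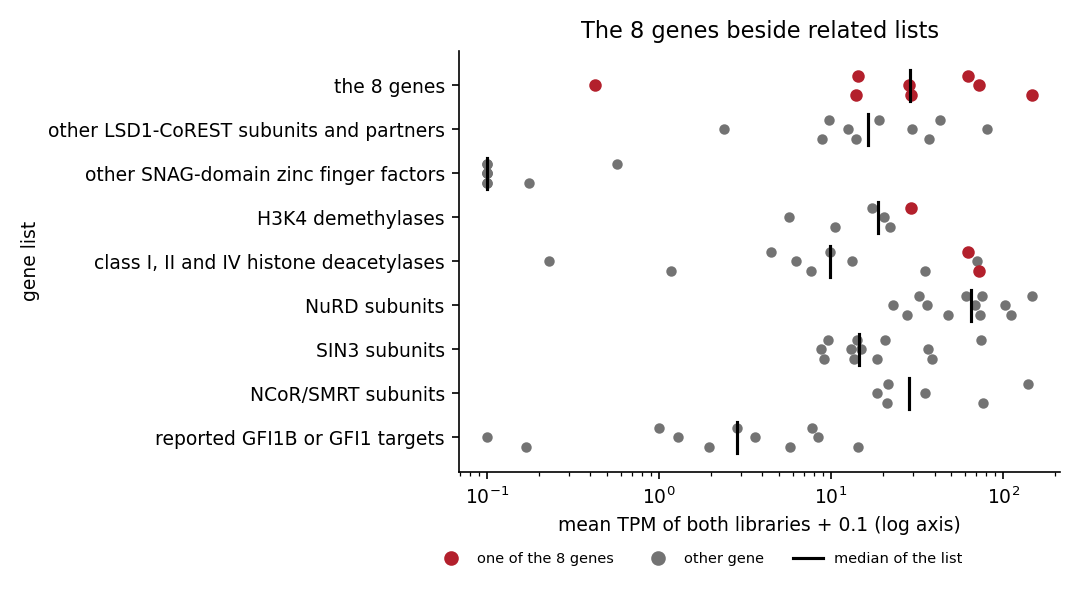
Mean TPM of both libraries + 0.1 on a log axis for the 8 genes and for genes of related lists, with 1 point a gene, the 8 genes in red and the list median as a black line. Other SNAG-domain factors lie under 1 TPM, and the NuRD list has the highest median, at 64.7 TPM against 28.6 TPM for the 8 genes.

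Genes that earlier work has linked to repression by GFI1B or GFI1 reached 1 TPM in both libraries at a share near that of all genes. Of 11 such genes, 6 had at least 1 TPM in each library, and Socs3 and Csf1 were below it in each. That is 54.5% of the list, against 44.2% of all protein-coding nuclear genes. The list medians were 2.38 and 2.84 TPM, against 0.380 and 0.360 TPM over all those genes. Tgfbr3, a coreceptor of TGF-beta, was the one at 10 TPM or more, at 15.1 and 13.6 TPM. Of all 21461 protein-coding nuclear genes, 5308 reached 10 TPM in both libraries, a larger share than in this list. With so few listed genes this was not tested. Rgs18, a regulator of G protein signalling in platelets, was at 8.19 and 8.43 TPM, and the homeobox gene Meis1 at 8.57 and 6.79 TPM. Bcl2l1, which encodes the survival protein BCL-XL, was at 2.38 and 3.14 TPM. The T cell factor gene Gata3 was at 2.14 TPM in replicate 1, from 58 counts, and 0.260 TPM in replicate 2, from 31 counts. The 8 T and NK cell markers summed to 50.5 and 40.5 TPM, but single markers went both ways. Cd3g was at 12.6 and 1.10 TPM and Cd3e at 4.10 and 8.24 TPM in the respective libraries. The part of such cells in the Gata3 value was not tested. Of the cytokine signalling inhibitors, Socs1 was at 1.34 and 0.470 TPM and Socs3 had 0 counts in both libraries. Neither library lacked Gfi1b, so these levels measure no effect of the factor.

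The 3 protein-coding genes closest to Gfi1b in level were Snx5, at 135 and 157 TPM, Srgn, at 138 and 152 TPM, and Qars, at 133 and 154 TPM. Closeness was the Euclidean distance of log2(TPM + 1) over the 2 libraries, at 0.029, 0.038 and 0.047. With 2 libraries of 1 cell type this is a likeness of level only.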

How the data were processed

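The labels give 2 MEP libraries of 100 cells with spike-in RNAs. Per the README files beside the tables, genes and transcripts were quantified on mm10 with GENCODE M4. For the aligner and quantifier: not given in the sources used here. Deposited by the authors were expected counts, which are estimates and need not be whole, and TPM, which are scaled over all features, ribosomal RNA included. The deposited FPKM values served as an alternative only. Transcript shares are the percent values that the authors deposited. Posterior standard deviations, deposited as score columns, were not used. The deposited signal columns are credibility bounds on the TPM scale, printed for single transcripts; the level of these bounds is not given in the files.

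Names, coordinates, transcript classes and transcript sequences came from GENCODE M21 on GRCm38, the same assembly. Of 58 member transcripts, 57 were found there, all 57 with the length of the tables. RefSeq protein sequences were not used here, so the planned protein comparison was not made. The members and gene lists were chosen with earlier results of these data known. By the naming rule, all members, their transcripts of at least 10% of the gene, list genes at 10 TPM in both libraries or 4-fold apart, and the 3 genes nearest to Gfi1b could be named. Other list genes, further transcripts, the copies and the overlapping genes were named after their values were seen, and not every gene the rule takes is printed.

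Detection meant 1 TPM. No p-values were computed. One planned ratio is not reported here. edgeR 4.0.16 (TMM factors) and DESeq2 1.42.0 (size factors), in R 4.3.3 on rounded expected counts, gave alternative scalings. Copies were sought with blastn 2.17.0 (words of 11 bases), and the rest was run in Python 3.11.15 (scipy 1.17.1 for intervals, pandas 2.3.3, numpy 2.4.6, figures by matplotlib 3.10.9).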

Additional observations from a re-analysis of the deposited data

How the results depend on the processing

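No paired analysis was possible because there is 1 group. Over the alternatives that used both libraries, which were other scalings, posterior means, FPKM, pseudocounts and filters, 105 of 125 values moved by less than the spread between libraries or, for counts and ratios between libraries, by no more than 1.5 times. The first of these limits is widest where the libraries differ most. All 56 alternatives of the member ratios fell within the second, also where Gfi1b passed from above 1 to below it. The tally thus does not measure stability. The median level of the 8 genes, 28.6 TPM, became 67.0 when rescaled over protein-coding nuclear genes and 21.2 as FPKM, since the divisors differ. Each library alone gave 27.9 and 29.4; with 2 libraries such values restate their spread and say nothing of stability. The ratio of the mean levels of Gfi1b and Gfi1 was 451 and became 323 with posterior means; the cause was not tested. The share of genes 2-fold apart was 5.91% with a minimum mean of 10 TPM and 35.7% over all genes with any count, against 16.3%, by construction of the filters. The count of members 2-fold apart stayed at 0 in all settings. Counts of neighbours called apart and of shared main transcripts need both libraries, so they were not computed for each library alone. The 15 and 36 counts of Gfi1 limit the precision of its ratios.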
